A study of Mus musculus with 17 samples.

Results

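H3K27ac peaks at microRNA genes of the mouse hypothalamus are described here. A peak was included when it overlapped the span of a microRNA gene, or the 5 kb on either side of it, in build mm10. A microRNA gene was any RefSeq gene whose symbol began with Mir or Mirlet and a number. The rule found 1647 of the 183678 peaks in the list (0.897%), at 1193 genes, of which 1180 were short hairpin genes and 13 were host transcripts whose symbol ends in hg. It used positions only. Of the 1647 peaks, 158 lay in the windows of more than 1 gene, up to 9 genes for 1 peak.

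The study profiled the hypothalamus, a part of the base of the brain that governs appetite, body temperature and hormone release. Its 17 samples were 3 bulk CUT&Tag samples for H3K27ac, titled as biological replicates, and sub-libraries of the single-nucleus assay Paired-Tag (7 of DNA and 7 of RNA), which were not analysed here. CUT&Tag tethers the Tn5 transposase to an antibody, so that marked chromatin is cut and sequenced. No treatment, genotype, strain, age or sex was given in the sources used here. The 3 bulk samples shared 1 peak list, which gives neither values of single replicates nor reads, so depth is unknown, there is no spread between animals, and no test over samples was possible. Each fold enrichment below is the value that the authors' peak caller gave to that peak, on a linear scale. In bulk tissue, a mark carried by fewer cells and less mark per cell cannot be told apart.

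A microRNA is cut from a hairpin in a longer primary transcript by the Drosha and Dgcr8 complex and then by Dicer. The mature strand, carried by an Argonaute protein, lowers the translation and stability of messenger RNAs that pair with its seed. Some hairpins have their own noncoding host transcript, often driven from a distant promoter, and others lie in introns of protein-coding genes. H3K27ac, the acetylation of lysine 27 on histone H3, marks active promoters and enhancers, and a peak near a hairpin measures the mark and not the microRNA.

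The sequences below introduce the brain families to which the results return. They are mature sequences from RefSeq in assembly GRCm38.p6, written 5′ to 3′ with the seed, bases 2 to 8, in capitals. The first set holds microRNAs known from neurons and neural progenitors, encoded by genes of the neuronal list.
miR-9-5p: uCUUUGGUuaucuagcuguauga
miR-128-3p: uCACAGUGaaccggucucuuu
miR-7a-5p: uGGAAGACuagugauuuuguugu
miR-7b-5p: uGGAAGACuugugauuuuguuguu
miR-132-3p: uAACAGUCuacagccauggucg
miR-212-3p: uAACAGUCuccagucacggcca
miR-137-3p: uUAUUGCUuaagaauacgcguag
miR-218-5p: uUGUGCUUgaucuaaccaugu
miR-132 and miR-212 share the seed AACAGUC, and miR-7a and miR-7b share GGAAGAC. The miR-9 sequence is encoded at 3 genes on chromosomes 3, 7 and 13, and miR-128 and miR-218 are each encoded at 2 genes. The Mir124a genes have no entry in the sequence table and are described by name only.

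The second set holds let-7, which in many animals restrains growth and stem cell genes, and the families that are made from the same clusters as let-7.
let-7a-5p: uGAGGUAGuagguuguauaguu
let-7c-5p: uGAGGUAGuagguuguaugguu
let-7i-5p: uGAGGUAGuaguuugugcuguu
let-7g-5p: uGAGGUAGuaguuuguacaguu
let-7f-5p: uGAGGUAGuagauuguauaguu
miR-98-5p: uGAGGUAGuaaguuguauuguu
miR-99a-5p: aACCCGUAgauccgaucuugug
miR-100-5p: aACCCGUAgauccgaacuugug
miR-125b-5p: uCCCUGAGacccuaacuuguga
The let-7 members and miR-98 share the seed GAGGUAG, and miR-99a and miR-100 share ACCCGUA. The third set holds microRNAs named for glia, vessels and blood: miR-219a and miR-338 act in oligodendrocyte maturation, miR-126a in endothelium, and miR-142a and miR-223 in blood cells.
miR-219a-5p: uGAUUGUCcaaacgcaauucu
miR-338-3p: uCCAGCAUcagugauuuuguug
miR-126a-3p: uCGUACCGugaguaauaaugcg
miR-142a-3p: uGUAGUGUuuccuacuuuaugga
miR-223-3p: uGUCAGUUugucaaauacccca

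Of the 1193 microRNA genes, 780 had at least 1 peak within 5 kb (65.4%, Wilson 95% interval 62.6 to 68.0), and 413 had none. The same window held a peak at 63.3% of genes of all other kinds, at 77.5% of protein-coding genes and at 74.5% of long noncoding RNA genes, whose longer spans make larger windows. Among other genes of at most 300 bp, the share was 42.2%. By class it was 46.3% for snoRNA genes, 36.5% for snRNA genes and 60.3% for tRNA genes. A peak was found in 35.7% of all 10 kb tiles. MicroRNA genes thus had a peak more often than other short genes and about as often as genes of all lengths. The intervals cover counting error only, and neighbouring genes share peaks: when genes closer than 10 kb were joined, 668 of 903 loci had a peak (74.0%).

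Most marked genes had few peaks: 272 had 1, 215 had 2, 158 had 3 and the rest had 4 or more. The marked genes' strongest peak had a median fold of 4.61 (quartiles 3.33 and 7.12), against 5.06 at other marked genes of at most 300 bp. Over all 1647 peaks the median fold was 3.03 (quartiles 2.40 and 4.49), against 3.18 (quartiles 2.60 and 4.24) in the remaining 182031 peaks. The median width was 632 bp at microRNA genes and 557 bp elsewhere. So the typical peak at a microRNA gene was about as strong as the typical peak of the list and slightly wider.

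Peaks at microRNA genes lay more often at an end of a protein-coding gene. Within 1 kb of such an end were 22.8% of the 1647 peaks (Wilson 95% interval 20.8 to 24.9), against 10.4% (10.3 to 10.6) of the remaining peaks. These had a median fold of 5.399, and the 1272 others at microRNA genes had 2.85. In the remaining list the medians were 5.97 at the ends and 3.11 away from them. A peak at such an end cannot be assigned to the microRNA gene. The distance limit had no visible step: the 251 peaks reached only by the last 1 kb of the window had a median fold of 2.99, and the 272 peaks in the first 1 kb outside it had 2.99.

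**Figure D1:**
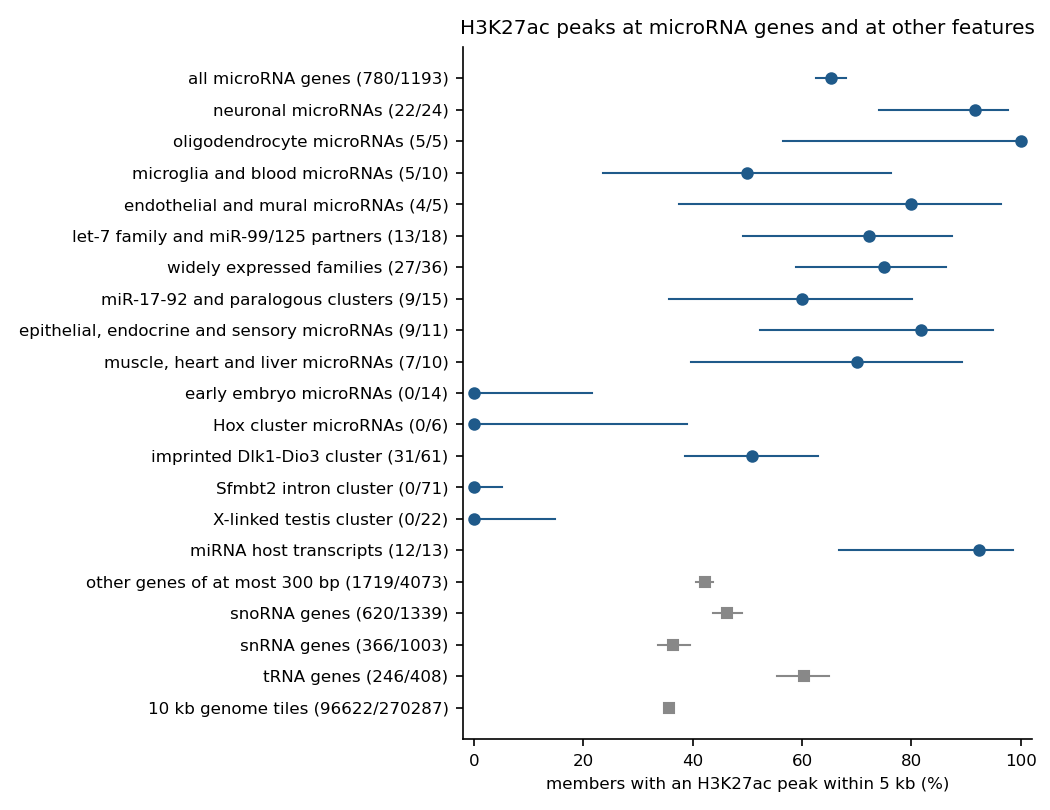
Percent of genes with an H3K27ac peak within 5 kb (x axis) for all microRNA genes and for each list of microRNA genes (blue circles), and for other short genes and 10 kb tiles (grey squares). Bars are Wilson 95% intervals for counting error, and the counts stand beside the names. Neuronal microRNA genes (22 of 24) and host transcripts (12 of 13) lie near the right, and 4 lists have no member with a peak.

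Neuronal microRNA genes were marked almost throughout. Of 24 genes, 22 had a peak (91.7%, Wilson 95% interval 74.2 to 97.7), and 16 of the 24 hairpins lay under a peak, against 21.9% of all 1180 hairpins. The strongest peak of the marked neuronal genes had a median fold of 4.68, close to the 4.61 of all marked microRNA genes. The share of marked members was thus above that of all microRNA genes, and the strength of their peaks was not. Only Mir128-1 and Mir218-1 had none, with the nearest peak 5152 bp and 16705 bp away. The lists were chosen with earlier results of these data known.

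All 3 genes of miR-9, which acts in neural progenitors and their differentiation, were marked. Their hairpins are printed with the mature miR-9-5p in capitals, because the mature sequence is the same in all 3 and the hairpins around it are not.
Mir9-1: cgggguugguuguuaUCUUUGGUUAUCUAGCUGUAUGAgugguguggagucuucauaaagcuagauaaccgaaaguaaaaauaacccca
Mir9-2: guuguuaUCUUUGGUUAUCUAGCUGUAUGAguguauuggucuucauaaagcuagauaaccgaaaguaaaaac
Mir9-3: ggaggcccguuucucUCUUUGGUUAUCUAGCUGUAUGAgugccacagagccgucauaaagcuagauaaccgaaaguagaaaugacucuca
Mir9-1 (chr3:88215598-88215686) lay under a peak of fold 5.90 and width 1838 bp, and had a second peak of 2.24. Mir9-2 (chr13:83738814-83738885) had 3 peaks of fold 4.82, 4.61 and 1.72, the first of which overlapped the hairpin. Mir9-3 (chr7:79505264-79505353) had 6 peaks between 1.71 and 4.76, none over the hairpin, and the nearest ended 77 bp before it. The strongest of these 6 lay at the start of the host transcript Mir9-3hg. The 3 copies thus had strongest peaks of similar fold, between 4.76 and 5.90.

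All 3 genes of miR-124, the most characteristic microRNA of neurons, were marked as well. Mir124a-1 had peaks of fold 5.35, 2.87 and 2.72. Mir124a-2 had 4 peaks between 1.57 and 4.46, and Mir124a-3 had 4 peaks between 2.22 and 4.18. The strongest peak of each lay beside the hairpin and not over it, with summits 3208 bp, 1799 bp and 958 bp away in that gene order.

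Among the other neuronal genes, the highest fold belonged to a shared peak. Mir132 and Mir212, which neuronal activity induces through CREB, lie on chromosome 11 within 1 peak of fold 4.77 (75172517 to 75173956). Their highest fold, 12.2, was that of a peak at the ends of the protein-coding genes Dph1 and Ovca2, with its summit 5249 bp from Mir132. Mir7b, from a family that is abundant in the hypothalamus, had a peak of fold 9.46 with its summit 1146 bp upstream, within 1 kb of the start of the noncoding gene A230051N06Rik. The other genes of that family had lower values: Mir7-2 had 5.27 and Mir7-1 had 2.33. Mir128-2, in an intron of Arpp21, lay under a peak of fold 8.46, while Mir128-1, which encodes the same mature miR-128-3p, had none. Likewise Mir218-2 had a highest fold of 2.80 and its copy Mir218-1 none. Mir137 had 4 peaks between 2.59 and 4.14, 1 of them over the hairpin.

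The 5 oligodendrocyte microRNA genes all had peaks, with highest folds between 3.21 and 8.09. They lie at only 3 loci, and the Wilson interval of the share, 56.55 to 100.0%, includes the 65.4% of all microRNA genes. Mir219a-1 lay under a peak of fold 8.09, which was at the ends of H2-Ke6 and Ring1 and so cannot be assigned to it. Mir219a-2 encodes the same mature sequence and had 5 peaks, the strongest of fold 3.67, near the ends of Cercam and Urm1. Mir338, in an intron of Aatk, had 6 peaks between 1.47 and 3.21, and none overlapped its hairpin. Mir219b and Mir219c are opposite-strand entries of the same loci and share these peaks. For 4 of the 5 genes the strongest peak was at an end of a protein-coding gene.

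Of the microglia and blood microRNA genes, 5 of 10 had a peak (50.0%, Wilson 95% interval 23.7 to 76.3), and no hairpin lay under one. That interval includes the 65.4% of all microRNA genes, and with a 10 kb window the share of this list was 90.0%. Mir146b had 9.55, at an end of Cuedc2. Away from such ends were the peaks of Mir146, with 4.05, and of Mir142, with 3.00. Mir144 and Mir451a, red cell microRNAs, had none within 5 kb, and neither did Mir155. Their nearest peaks were 6740, 6569 and 6577 bp away in that order, a little past the 5 kb limit. The myeloid Mir223 had none either, and the nearest peak was 58255 bp away. The host transcript Mir155hg also had none. Of the 5 endothelial and mural genes, 4 had a peak (Wilson 95% interval 37.55 to 96.38%). That interval also includes the 65.4% of all microRNA genes. The 5 genes lie at 3 loci, of which 2 had a peak. Mir126a had 6.66, from a peak within 1 kb of an annotated start of its host gene Egfl7, with the summit 4520 bp upstream of the hairpin. Mir145a had 4.82 and Mir143 had 3.45, and Mir145b had none, with the nearest peak 5215 bp away. The brain cell types behind these peaks were not resolved in the bulk list.

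**Figure D2:**
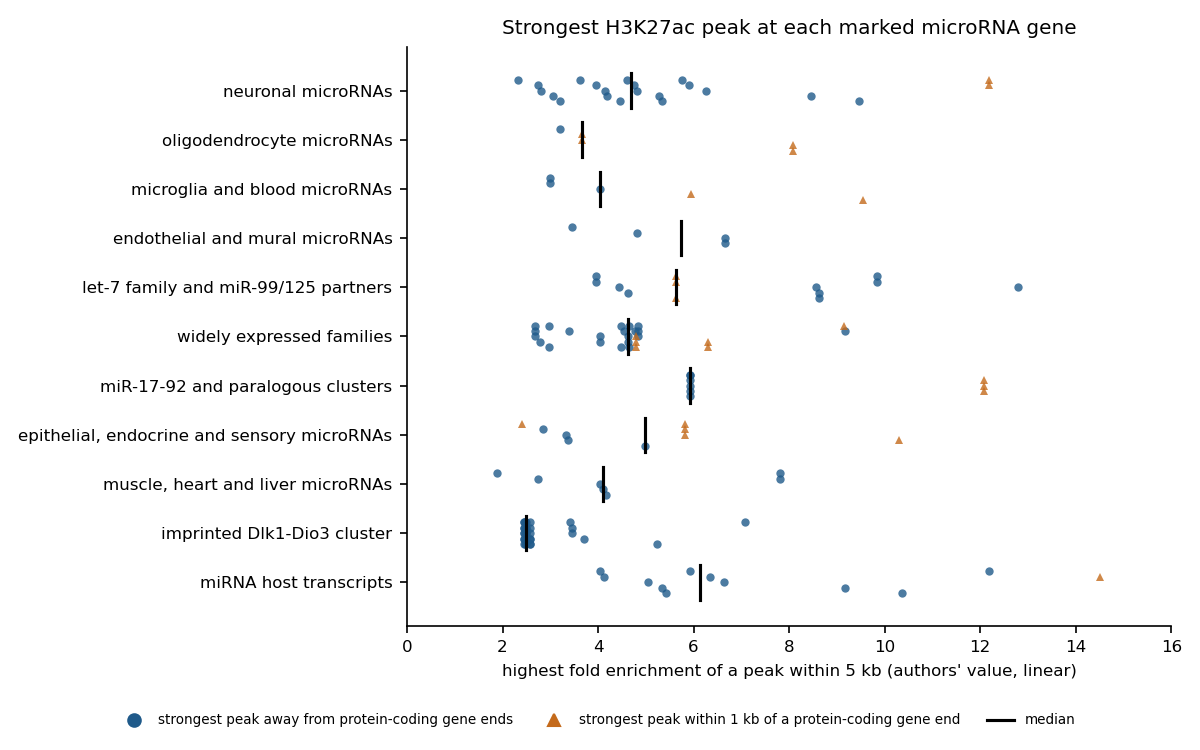
Highest fold enrichment of a peak within 5 kb (x axis, linear) for each marked microRNA gene, by list (y axis). Blue circles have their strongest peak away from protein-coding gene ends, orange triangles within 1 kb of one, black lines are medians, and genes that share a peak share a value. The Dlk1-Dio3 genes cluster near their median of 2.49, and the 2 neuronal genes at 12.2 are Mir132 and Mir212.

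Genes of let-7 and of its cluster partners miR-99, miR-100 and miR-125 differed between genomic loci. Of 18 genes, 13 had a peak (72.2%, Wilson 95% interval 49.1 to 87.5), against 65.4% of all microRNA genes. Their strongest peaks had a median fold of 5.63. Mir125b-2 had the highest fold of any hairpin gene whose strongest peak was away from protein-coding ends, 12.8, with the summit 1773 bp upstream of the hairpin. Mir100 and Mirlet7a-2 shared a peak of 9.83, Mir99a and Mirlet7c-1 shared 8.63, and Mirlet7i lay under a peak of 8.56. Mir99b, Mirlet7e and Mir125a shared 5.63, at an end of Spaca6. Lower values were found at Mirlet7d, with 4.62, at Mir125b-1, with 4.44, and at Mirlet7b and Mirlet7c-2, with 3.96 each. The genes without a peak within 5 kb were Mirlet7g, Mirlet7f-1, Mirlet7a-1, Mirlet7f-2 and Mir98. For the first 3 the nearest peak was 6547 to 6897 bp away. Mirlet7f-1 and Mirlet7a-1 lie in the same cluster as the marked Mirlet7d, whose peak is 4730 bp from it, so the 5 kb limit parts them. A 10 kb window gave 16 of 18 genes a peak. For Mirlet7f-2 and Mir98, on the X chromosome, it was 89193 and 88300 bp away. Of the 13 genes with a mature entry and the seed GAGGUAG, 7 had a peak. These 13 are not the let-7 genes of the list: they include Mir1961 and Mir7k and leave out Mirlet7a-2.

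The host transcripts of these clusters carried more peaks than any other microRNA gene. Mir100hg spans 238.7 kb of chromosome 9 (41376526 to 41615185) and had 44 peaks, with a median fold of 3.26 and a highest fold of 10.4. Mir99ahg spans 229.1 kb of chromosome 16 (77329328 to 77558428) and had 35, with a median of 3.68 and a highest fold of 12.2. Per 10 kb of the window, which includes 5 kb on either side, these were 1.77 and 1.46 peaks, against 0.680 per 10 kb tile over the whole list. The shorter host Mir9-3hg had 3.16 and Mir670hg had 1.05. These hosts were the microRNA genes with the most peaks, so their densities do not stand for host transcripts in general. The tiles cover genes and the stretches between them, and no comparison with noncoding genes of like length was made. In Mir100hg and in Mir99ahg, 12 peaks each were in the upper quartile of fold of the whole list, which began at 4.24. In both the strongest lay inside the transcripts and not at their starts, and that of Mir99ahg was within 1 kb of a start of the long noncoding RNA gene 9430053O09Rik. The start of Mir100hg was under a peak of 5.60 and that of Mir99ahg under one of 7.50. Mir100, Mirlet7a-2 and Mir125b-1 lie inside Mir100hg, and Mir99a, Mirlet7c-1 and Mir125b-2 lie beyond the RefSeq end of Mir99ahg.

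**Figure D3:**
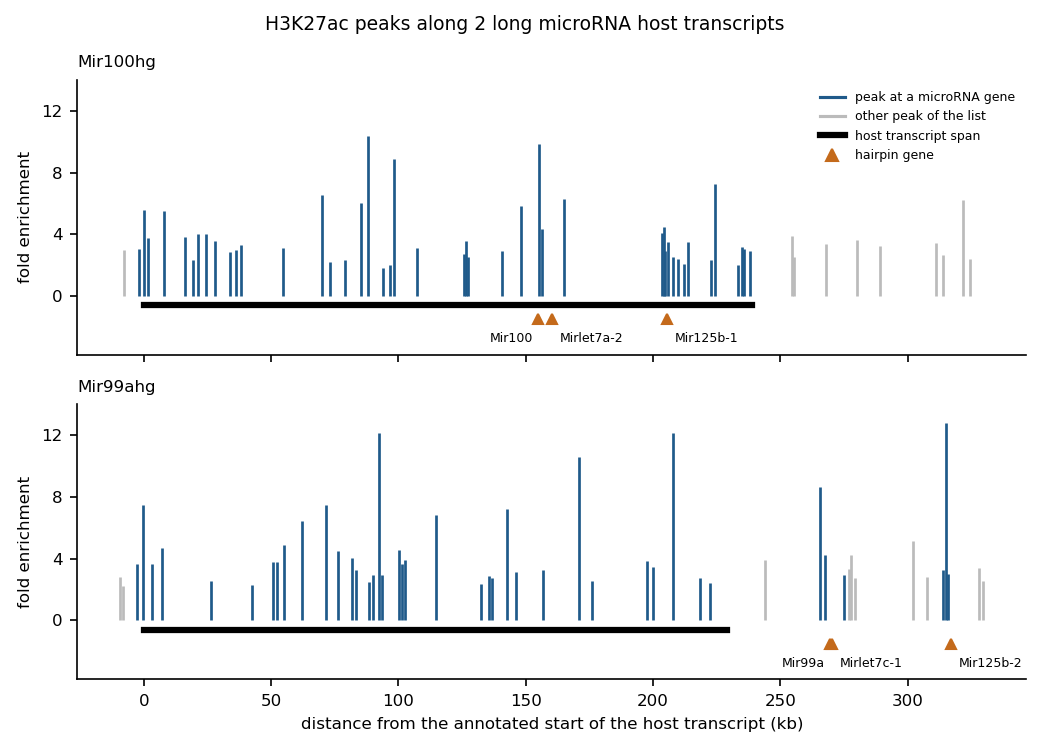
Fold enrichment of each peak (y axis, linear) against the distance from the annotated start of Mir100hg (top) and Mir99ahg (bottom), in kb. Blue lines are peaks at microRNA genes, grey lines are other peaks of the list, black bars are the host transcripts and triangles the hairpin genes. Strong peaks lie inside both hosts, up to 10.4 and 12.2, and next to Mir125b-2 at 12.8.

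Of the 13 host transcripts, 12 had a peak. The Wilson interval of this share, 66.69 to 98.63%, includes the 74.5% of long noncoding RNA genes. Its lower end is just above the 65.4% of all microRNA genes, most of which are short hairpin genes. Among the 15 RefSeq promoter entries of 10 of the 13 hosts, 11 lay under a peak. Of these, 4 are entries of Mir670hg with nearly the same start under 1 peak, and 8 of 12 lay under a peak when entries with starts within 50 bp were counted once, which was done after the values were seen. Among all 32851 promoter entries the share was 53.6%. A promoter entry runs from 250 bases before to 50 bases after an annotated start. The promoters of Mir9-3hg and Mir22hg are printed as examples that each lie under the strongest peak within 5 kb of the hairpin hosted. Capitals mark matches to 5 motifs searched on both strands: the CRE core TGACG, the E-box CACGTG, the GC box GGGCGG, the CCAAT box, written ATTGG, and the TATA box TATAAA.
Mir9-3hg: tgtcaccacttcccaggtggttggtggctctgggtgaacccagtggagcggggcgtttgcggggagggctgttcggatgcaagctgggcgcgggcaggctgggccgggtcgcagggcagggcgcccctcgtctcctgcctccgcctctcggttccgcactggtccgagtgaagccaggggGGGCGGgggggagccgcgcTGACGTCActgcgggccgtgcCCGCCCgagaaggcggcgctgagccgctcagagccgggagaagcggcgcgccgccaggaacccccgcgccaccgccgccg
Mir22hg: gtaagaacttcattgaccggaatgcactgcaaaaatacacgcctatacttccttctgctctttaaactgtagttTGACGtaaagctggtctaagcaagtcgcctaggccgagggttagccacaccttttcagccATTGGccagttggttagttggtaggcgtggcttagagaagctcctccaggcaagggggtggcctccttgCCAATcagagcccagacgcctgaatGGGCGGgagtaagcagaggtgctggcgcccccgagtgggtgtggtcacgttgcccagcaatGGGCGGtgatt
The first, chr7:79499776-79500075 on the plus strand in GRCm38.p6, lay under a peak of fold 4.76. It has 35 CpG sites, against a median of 7 over all promoter entries. It holds 2 GC boxes and the palindrome TGACGTCA, in which 2 CRE cores on opposite strands overlap. The second, chr11:75461289-75461588 on the plus strand, lay under a peak of fold 9.17 and width 2734 bp. It holds 1 CRE core, 2 GC boxes and 2 CCAAT boxes, and 12 CpG sites. Neither holds the E-box or the TATA box. The promoter of Mir1a-1hg, not printed, also lay under the strongest peak within 5 kb of its hairpin gene Mir1a-1, of fold 4.05. It has 15 CpG sites and no match to any of the 5 motifs. Of all promoter entries, 20.8% hold the CRE core, 35.7% the GC box, 37.4% the CCAAT box, 13.6% the TATA box and 7.15% the E-box, so these matches are common. A match is a stretch of letters and not a measured binding site.

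Mir22hg is the host of miR-22, a microRNA of muscle, metabolism and brain, and no protein-coding end lay within 1 kb of its peak. Among the other hosts, Mir670hg had 12 peaks, the strongest of 14.5 at an end of Hsd17b12 and the next of 11.8 inside the transcript. Mir9-3hg had 14 peaks between 1.71 and 6.64, and the strongest lay beyond the far end of the transcript. Mir124-2hg had 6 peaks with a highest fold of 6.34, and Mir124a-1hg had 3 with 5.35. Mir17hg had 1 of 5.93, Mir217hg 1 of 5.42 and Mir205hg 5 with a highest fold of 5.04. The hosts of muscle microRNAs had the lowest values, Mir1a-1hg with 4.05 and Mir133a-1hg with 4.12. Mir155hg, a host induced in activated immune cells, was the 1 host without a peak, and the nearest lay 5536 bp away.

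Families expressed in many tissues were marked at 27 of 36 genes (Wilson 95% interval 58.9 to 86.3%), with a median highest fold of 4.62. The interval includes the 65.4% of all microRNA genes, and the median highest fold of all marked microRNA genes was 4.61. Mir22 had 9.17 and Mir26b 9.15, the second at an end of Ctdsp1, the gene that hosts it. Mir15b and Mir16-2 shared a peak of 6.30 at ends of Ift80 and Smc4, while Mir15a and Mir16-1, which form the other cluster of this family, had none within 15 kb. The clusters of Mir29 were both marked, Mir29b-2 and Mir29c with 4.48 and Mir29a and Mir29b-1 with 2.97. Mir181a-1 and Mir181b-1 lay under 1 peak of 4.62, and Mir181a-2 and Mir181b-2 had none. Mir30a, Mir30d, Mir103-1, Mir221 and Mir222 also had none. Their nearest peaks were 7678, 5997, 12024, 20712 and 20129 bp away in that order. With the 5 kb limit, family members thus differed from locus to locus.

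The growth-promoting miR-17-92 cluster and its paralogs were marked or unmarked as whole blocks, whose genes lie next to each other. The 6 genes from Mir17 to Mir92-1 shared 1 peak of fold 5.93 and width 2384 bp, with its summit 1340 bp upstream of Mir17. Mir25, Mir93 and Mir106b, in an intron of Mcm7, shared 1 peak of 12.1 at an end of Cops6. The 6 genes of the X-linked paralog, from Mir106a to Mir363, had none, and the nearest peak was 48140 to 48940 bp away. The seed AAAGUGC is common to members of all 3 clusters, of which 1 of each is shown.
miR-17-5p: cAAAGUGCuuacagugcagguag
miR-106b-5p: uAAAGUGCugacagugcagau
miR-20b-5p: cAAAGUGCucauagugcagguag
Mir17 and Mir106b had peaks within 5 kb and Mir20b had none.

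For epithelial, endocrine, muscle, heart and liver microRNA genes, the intervals of the shares with a peak included the 65.4% of all microRNA genes. Of 11 epithelial, endocrine and sensory genes, 9 had a peak (Wilson 95% interval 52.3 to 94.9%), with a median highest fold of 4.99. The strongest was at Mir141, 10.3, at ends of Emg1 and Phb2. Mir200b, Mir200a and Mir429, which act in epithelia and in the pituitary, shared 5.82 at an end of Ttll10, and Mir203 lay under a peak of 4.99. Mir375, of endocrine cells, had 2.85. Mir182 had 3.32, from a peak 4195 bp away, while Mir96 and Mir183 of the same sensory cluster had none. The nearest peaks to Mir96 and Mir183 were 5858 and 5672 bp away, so the 5 kb limit parts them from Mir182. Of 10 muscle, heart and liver genes, 7 had a peak (Wilson 95% interval 39.7 to 89.2%), with a median of 4.11. Mir206 and Mir133b of skeletal muscle shared a narrow peak of 7.80 that was 239 bp wide. Mir1a-1 had 4.05 and the liver microRNA gene Mir122 had 2.75, whereas Mir133a-2, Mir133a-1 and Mir1a-2 had none. The nearest peaks to these unmarked genes were 11644, 7743 and 5167 bp away in that order. For 5 of the 9 marked epithelial genes the strongest peak was at a protein-coding end. With a 1 kb window the share with a peak was 18.2% in the epithelial, endocrine and sensory list and 20.0% in the muscle, heart and liver list, against 38.7% of all microRNA genes. These shares rest on lists of 11 and 10 genes and are given without intervals.

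The imprinted Dlk1-Dio3 domain on chromosome 12 holds a large microRNA cluster, which is read from the maternal chromosome together with the noncoding RNAs Meg3, Rian and Mirg. Of its 61 microRNA genes, 31 had a peak (50.8%, Wilson 95% interval 38.6 to 62.9), against 65.4% of all microRNA genes. The marked genes' highest fold had a median of 2.49, the lowest of the lists with a peak, against 4.61 for all marked microRNA genes. Genes that share a peak count each time in that median, and the 15 separate peaks had a median fold of 2.66, against 3.03 for all 1647 peaks. The domain of 828.6 kb held 54 peaks, of which 15 were at microRNA genes, and only 3 hairpins lay under a peak. In the 34.74 kb from Mir379 to Mir410, where 38 of the genes lie, 16 had a peak within 5 kb, and 1 peak overlapped the stretch, with a fold of 2.46. The 9 genes from Mir376c to Mir544 shared that peak. The 7 genes from Mir496a to Mir410 shared another of 2.56, which began just past the end of Mir410.

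Higher folds were found at a few genes outside the stretch from Mir379 to Mir410. Upstream of Mir379, 14 of 21 genes had a peak. Mir1906-1, near the start of Meg3, had 5 peaks with a highest fold of 5.24. Mir370 had 3.70 and Mir341 and Mir1188 shared 3.46, all 3 in the span of Rian. At the other end Mir3072 had 7.08, from a peak of 1947 bp across the end of Mirg, the highest fold of the whole domain. Mir127, Mir136 and Mir434, which lie opposite the paternally expressed Rtl1, had none, while Mir431 and Mir433 in the same stretch shared a peak of 2.47. For Mir127, Mir136 and Mir434 the nearest peaks were 5940, 8421 and 7600 bp away. Mir1247, beside Dio3, had none.

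4 lists had no member with a peak. None of the 14 early embryo genes was marked: at the pluripotency cluster from Mir290a to Mir295 the nearest peaks were 43564 to 45710 bp away, and at Mir302a to Mir302d and Mir367 they were 7146 to 7652 bp away. None of the 6 Hox cluster genes was marked, with the nearest peak 8067 bp from Mir196b and 160233 bp from Mir196a-2. Their seeds are given by the mature sequences below, as examples of families of the early embryo and of the body axis without a peak at any of the genes shown.
miR-294-3p: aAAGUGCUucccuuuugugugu
miR-10a-5p: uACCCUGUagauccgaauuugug
miR-10b-5p: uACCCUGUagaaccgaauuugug
miR-196a-5p: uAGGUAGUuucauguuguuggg
The seed AAGUGCU of miR-294 occurs at 5 genes with a mature entry, and none of the 5 had a peak.

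The 71 genes in an intron of Sfmbt2, a rodent cluster known from placenta and embryonic stem cells, had none either (0.0%, Wilson 95% interval up to 5.13). They fill 51.62 kb of chromosome 2 (10466663 to 10518279), and the nearest peaks were 10069 to 51036 bp away. The span of Sfmbt2 itself, 224.8 kb, held 15 peaks with a highest fold of 7.78, all outside the stretch of hairpins. The 22 genes of the X-linked testis cluster had none, and the nearest peaks were 123537 to 657071 bp away. Both clusters hold near-identical copies. Reads from such copies may be shared between them or discarded, and the treatment of such reads is not given in the sources used here, so their part in the missing peaks was not tested. Being of 71 and 22 genes, these clusters weigh on the shares of chromosomes 2 and X.

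The highest folds at microRNA genes were those of peaks at the ends of protein-coding genes. All 10 genes of highest fold had their strongest peak at an end of a protein-coding gene, as did 266 of all 780 marked genes (34.1%). The median was 7.31 for these 266 and 3.94 for the other marked genes. Mir467f had 17.7, at Fxr2, Mir3077 had 15.4, at Sap18, and Mir320 had 15.2, at Polr3d. Mir1306 lies in Dgcr8, which encodes the partner of Drosha in hairpin cutting, and had 15.2 at the start of that gene. Mir5627 had 15.2 at Dnajb9 and Mir695 had 15.04 at Pigu. Mir6929, Mir670hg, Mir5619 and Mir7075 had values between 14.3 and 14.6. Mir320 and Mir484 are known as hairpins formed directly at a capped transcript start, without Drosha. Both hairpins lay under their peak, and Mir484 had 12.6, at an end of Marf1.
miR-484: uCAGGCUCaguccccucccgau
miR-423-5p: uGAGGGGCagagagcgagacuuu
Mir423, whose mature sequence is shown beside that of miR-484, also lay under its strongest peak, of 13.2 at an end of Nsrp1. For these genes the mark of the hairpin and that of the protein-coding gene cannot be told apart.

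Genes whose strongest peak was away from such ends were listed after their values were seen. Mir125b-2 came first with 12.8, followed by Mir99ahg with 12.2. Mir6348 had 11.8 and Mir6363 had 11.3, each from a peak within 1 kb of the start of a long noncoding RNA gene, Gm39696 and Dubr. Mir130c had 11.5, within 1 kb of an annotated start inside the protein-coding gene 4930550C14Rik. Such inner starts were not counted as ends, and they lay at the strongest peak of 11 of the 514 marked genes away from ends. Mir210, induced by low oxygen through HIF, lay under a peak of 10.6. Mir100hg, Mir100 and Mirlet7a-2, Mir7b and Mir22 were among the next.

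Peak coverage was highest at the hairpins themselves. Of the 1180 hairpins, 258 lay under a peak (21.9%, Wilson 95% interval 19.6 to 24.3), against 11.3% of other genes of at most 300 bp. The 244 peaks that covered a hairpin had a median fold of 4.26, and the other peaks at microRNA genes had 2.96. A wider peak covers a given point more readily, and these medians were not compared at equal width. Peaks over a gene span had a median width of 857 bp, against 632 bp for all peaks at microRNA genes. Among 667 stranded hairpins inside protein-coding spans, 22.5% of hairpin centres lay under a peak, and 2 kb upstream and downstream of the centre the shares were 15.1% and 10.0%. Among 360 stranded hairpins outside protein-coding spans these shares were 21.4% at the centre, 10.0% upstream and 5.00% downstream. At other short genes they were 8.50% at the centre and 5.16% at 2 kb, with both sides averaged. So hairpins inside and outside protein-coding genes had almost the same share at the centre and differed around it.

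The share of hairpins with any peak within 5 kb differed by position relative to protein-coding genes. Inside protein-coding spans 558 of 794 did (70.3%, Wilson 95% interval 67.0 to 73.4), against 61.4% of other short genes there. Outside them 210 of 386 did (54.4%, 49.4 to 59.3), against 34.5% of other short genes there. The 71 unmarked Sfmbt2 genes are among those inside, and the shares were not adjusted for clusters. The strongest peak was at a protein-coding end for 38.9% of the marked hairpins inside and 22.9% of those outside. Of 708 marked hairpins with a known strand, the strongest summit lay upstream of 397, inside 18 and downstream of the rest. MicroRNA genes without a peak had their nearest one at a median of 18380 bp, and for 56 of these 413 genes it was beyond 100 kb.

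**Figure D4:**
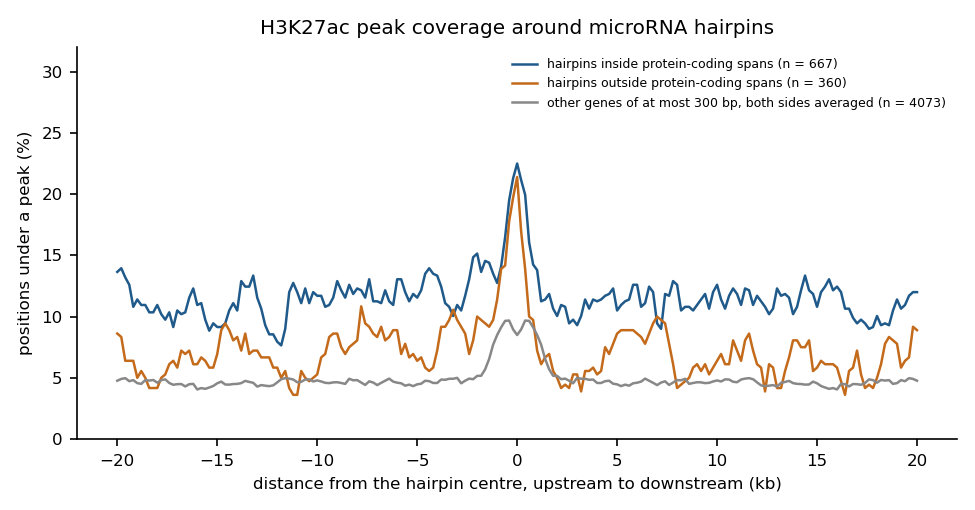
Percent of positions under an H3K27ac peak (y axis) by distance from the hairpin centre (x axis, kb), oriented along the strand. Blue is for hairpins inside protein-coding spans, orange for hairpins outside them, and grey for other genes of at most 300 bp with both sides averaged. Both hairpin curves peak at the centre, at 22.5% and 21.4%, and the grey curve stands at 8.50% there.

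Of all 1193 microRNA genes, 65.4% had a peak, and copies that encode the same mature microRNA did not always share the mark. Mature entries exist for 1013 of these genes, and copies without an entry, such as Mirlet7a-2, are left out of the counts that follow. Of 50 mature sequences encoded at more than 1 gene, 22 had a peak at every gene, 11 at none and 17 at some. Besides miR-128, miR-218 and miR-181a, the last set held miR-16, miR-103, miR-19b and miR-92a. Examples with a peak at every copy were miR-9, miR-125b, miR-129, miR-135a, miR-138, miR-219a, miR-7a, miR-24 and miR-26a. Grouped by seed, 58 seeds occurred at 3 or more genes: for 24 every gene had a peak, for 6 none did and for 28 some did. The seed CCCUGAG of miR-125 had a peak at all 6 of its genes and AGCACCA of miR-29 at all 4. Neighbouring copies share peaks, and both mature strands of some hairpins, as of miR-9, are counted, so these counts are not independent. The split that the share over all microRNA genes alone would give was not computed.

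By chromosome, the share of microRNA genes with a peak ran from 20.0% on X (18 of 90) to 94.6% on chromosome 8 (52 of 55). Over the autosomes it was 69.1%. Other genes of at most 300 bp on X had a peak at 15.96%. The strongest peaks of the 18 marked genes on X had a median fold of 5.58. Mir322, Mir351 and Mir503, a cluster active in muscle differentiation, shared a peak of 7.44 upstream of the hairpins.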

How the data were processed

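H3K27ac was mapped in mouse hypothalamus in 3 bulk CUT&Tag samples, grouped by their titles, and 1 peak list was given for the 3 together. Matrices from Paired-Tag were not used here. Build mm10 and, without roles, the tools UMI-tools 1.1.4, STAR 2.7.10a, MACS2, BWA 0.7.17 and cutadapt 4.5 are named in the submitters' processing notes. Not given in the sources used here are the caller's settings and background, the treatment of reads with several matches and the rule that combined the replicates.

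Each line of the deposited list holds the position and summit of a peak with its score, fold enrichment and −log10 p and q, identified by the order of the narrowPeak columns. The score deposited by the authors was not used in a result. The fold ratio deposited by the authors was used to describe and rank peaks within the list, and the deposited −log10 q values defined a stricter set. The −log10 p deposited by the authors was not used in a result.

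Genes came from a RefSeq table of GRCm38.p6 with 49943 genes on chromosomes 1 to 19, X and Y. It gives spans without strand or exons, and strand was taken from the RefSeq microRNA and promoter tables, which hold it for 1027 hairpin genes. A peak counted when at least 1 bp of it overlapped a gene's span or the 5 kb on either side. Overlaps were computed in Python 3.11.15 with numpy 2.4.6, pandas 2.3.3 and scipy 1.17.1, tested on simulated data and checked with bedtools 2.31.1, which also found 1647 peaks. Coordinates are 1-based in mm10. Other short genes had a span of at most 300 bp and another symbol, and 48 of these 4073 genes are annotated as microRNAs under other names.

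The members, the lists and the tests were chosen with earlier results of these data known. The text could name up to 3 members of highest fold and up to 3 without a peak per list, the 10 genes of highest fold, the 5 with most peaks and every host transcript. Other genes named, the ranking away from protein-coding ends, the seed and copy groups and the miR-344 genes were chosen after their values were seen. The alternatives changed the window, the peak threshold, the overlap, the gene set and the treatment of protein-coding ends.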

Additional observations from a re-analysis of the deposited data

How the results depend on the processing

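Replicates could not be compared and nothing could be left out in turn, because the 3 samples share 1 list. No paired analysis was possible because the list carries no value per sample. Over 11 alternatives, 28 of 50 main values moved less than counting error or the set limit and 22 moved further. The share of microRNA genes with a peak was 22.6% for the gene span alone, 38.7% with a 1 kb window, 76.5% with 10 kb, 37.2% with peaks in the upper quartile of fold, 51.9% without peaks at protein-coding ends, 69.1% on autosomes and 74.0% by locus. It stayed above that of other short genes in every setting for which that share was computed, with 22.6% against 11.3% for the span alone. The number of peaks was 349 for the span alone, 617 with 1 kb, 2919 with 10 kb and 459 in the upper quartile. The median fold was 3.89 for the span alone, 3.34 with 1 kb, 3.19 at a −log10 q of at least 5, 6.42 in the upper quartile and 2.85 without protein-coding ends. The median width in the same order of settings was 857, 732, 670.5, 1203 and 561 bp. The share of peaks at protein-coding ends was 50.5% in the upper quartile. Of 148 list shares recomputed, 113 stayed and 35 moved. With a 1 kb window the shares were 0.0% for the endothelial list and for miR-17-92 and its paralogs, 10.0% for the microglia and blood list, 18.2% for the epithelial list, 20.0% for the muscle list, 22.95% for Dlk1-Dio3, 41.7% for the widely expressed families and 44.4% for the let-7 list. With 10 kb they were 35.7% for the early embryo list, 77.1% for Dlk1-Dio3, 88.9% for the let-7 list, 90.0% for the microglia and blood list and for the muscle list, and 100.0% for the endothelial and epithelial lists and the host transcripts. For the gene span alone the neuronal share was 66.7%. In the upper quartile of fold it was 54.2%, that of the muscle list 20.0% and that of Dlk1-Dio3 3.28%. At a −log10 q of at least 5 the share of Dlk1-Dio3 was 36.1%. Depth is unknown, and a peak missing from the list may lie under its threshold.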

Other observations

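The miR-344 genes, which belong to no list and were looked at after their values were seen, were marked as a group. Of 13 genes in 402.2 kb of chromosome 7 (61683124 to 62085310), 11 had a peak within 5 kb, against 65.4% of all microRNA genes. Of the 13 hairpins, 10 lay under a peak, against 21.9% of all 1180 hairpins. Their 13 peaks had a median fold of 4.70. The strongest was at Mir344, with 6.79, followed by Mir344i with 6.07, Mir344d-3 with 5.78 and Mir344-2 with 5.71, and the lowest value among the marked genes was at Mir344f, with 3.54. Mir344e and Mir344h-1 had none. No strongest peak of this group was at a protein-coding end. The copies resemble each other, and whether reads are shared between them was not tested.

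The share of hairpin genes with a peak differed by the number in the gene name, which follows the order of entry in the microRNA registry. Of names below 1000, 265 of 526 genes had a peak (50.4%), of names from 1000 to below 5000, 121 of 178 (68.0%), and from 5000 up, 382 of 476 (80.3%). The shares of genes inside protein-coding spans moved with them, at 53.6%, 73.0% and 80.3%. The median highest fold was 4.63, 4.35 and 4.56 in these classes. All 93 genes of the Sfmbt2 and X-linked testis clusters, none with a peak, are in the class below 1000, and without them 265 of 433 genes of that class had a peak (61.2%) and 48.7% were inside protein-coding spans. This count was added after the values were seen, and the part of position in the remaining difference was not tested.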
